A study of Homo sapiens with 6 samples.

Results

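Gene-body regions are the places where the reChIP-seq peaks lay inside protein-coding genes but away from every annotated transcript start. They were selected on reads and position: peaks with at least 5 reads in any of the 4 reChIP libraries were merged along chromosomes 1 to 22 and X of hg38, and a merged region was kept when it overlapped a protein-coding gene of GENCODE version 44 and lay more than 1500 bp from the start of every transcript of any biotype. Of 28798 merged regions, 3480 met this rule, 20370 lay within 1500 bp of a transcript start and 4948 lay away from starts and outside protein-coding genes. Read counts chose the regions, so their counts and shares are given as descriptions and carry no test.

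The data are 6 peak lists from parental, untreated NCI-H661 cells, a single human cell line of large cell lung carcinoma, taken from a metastasis, that expresses the embryonic factors DPPA2 and DPPA4. In sequential ChIP (reChIP), chromatin bound by a first antibody is eluted and bound again by a second. The 3 conditions, each with 2 biological replicates, were defined by the antibodies used: H3K4me3 first and H2AK119ub second (K4–K119), the reverse order (K119–K4), or IgG in both steps (IgG–IgG). None of the 6 libraries pairs 1 histone antibody with IgG, so fragments carrying both marks and fragments carried over with 1 mark cannot be told apart. The sources do not say whether the replicates came from separate cultures, so p-values measure the spread between these libraries.

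H3K4me3 is trimethylated lysine 4 of histone H3, the mark of active and poised promoters, and it is written by SET1 and MLL complexes that favor unmethylated CpG islands. H2AK119ub is histone H2A with ubiquitin on a lysine of its tail, the product of Polycomb repressive complex 1. Variant forms of that complex reach CpG islands through KDM2B, a protein that binds unmethylated CpG. CpG islands inside genes can serve as unannotated or tissue-restricted promoters, and in many developmental genes islands extend through the coding exons.

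The windows below show what the regions look like as DNA. Each is the stretch of 300 bp richest in CpG in its region, outside annotated UTRs, printed 5′ to 3′ on the plus strand of hg38 with each CpG in capitals. The first 5 come from the regions with the most reads in all 4 libraries, passing over RIN3, which had no such window outside UTRs. The last, WNT8B, comes from a region with peaks in all 4 libraries that was among those with the fewest CpG.
CCM2L, chr20:32018961-32019260: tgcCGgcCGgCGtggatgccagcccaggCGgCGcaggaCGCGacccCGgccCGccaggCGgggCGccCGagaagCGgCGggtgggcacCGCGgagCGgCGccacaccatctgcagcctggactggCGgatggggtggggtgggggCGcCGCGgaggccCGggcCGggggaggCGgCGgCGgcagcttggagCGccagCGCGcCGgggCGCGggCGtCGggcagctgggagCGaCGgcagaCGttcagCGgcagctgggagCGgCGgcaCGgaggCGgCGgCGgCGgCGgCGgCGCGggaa
HIP1, chr7:75639161-75639460: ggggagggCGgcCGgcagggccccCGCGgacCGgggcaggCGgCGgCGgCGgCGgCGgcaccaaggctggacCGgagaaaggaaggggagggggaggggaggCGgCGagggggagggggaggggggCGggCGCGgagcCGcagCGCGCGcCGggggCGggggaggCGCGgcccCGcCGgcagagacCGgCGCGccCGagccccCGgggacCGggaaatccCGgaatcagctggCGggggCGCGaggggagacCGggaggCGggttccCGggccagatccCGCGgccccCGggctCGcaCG
KDM2B, chr12:121466731-121467030: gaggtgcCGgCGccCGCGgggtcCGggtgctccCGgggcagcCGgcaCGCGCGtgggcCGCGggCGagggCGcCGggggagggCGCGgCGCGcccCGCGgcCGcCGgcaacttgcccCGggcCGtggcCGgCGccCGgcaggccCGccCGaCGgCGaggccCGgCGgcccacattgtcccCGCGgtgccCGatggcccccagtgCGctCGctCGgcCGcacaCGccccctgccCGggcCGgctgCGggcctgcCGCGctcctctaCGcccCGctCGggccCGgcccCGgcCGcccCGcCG
NFIA, chr1:61050591-61050890: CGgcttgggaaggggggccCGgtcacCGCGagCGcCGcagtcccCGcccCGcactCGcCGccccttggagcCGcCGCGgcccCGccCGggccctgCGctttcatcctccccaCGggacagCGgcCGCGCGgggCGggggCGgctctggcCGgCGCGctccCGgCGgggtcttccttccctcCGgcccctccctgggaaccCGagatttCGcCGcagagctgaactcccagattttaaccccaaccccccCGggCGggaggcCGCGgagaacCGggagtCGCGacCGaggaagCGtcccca
PRR7, chr5:177455261-177455560: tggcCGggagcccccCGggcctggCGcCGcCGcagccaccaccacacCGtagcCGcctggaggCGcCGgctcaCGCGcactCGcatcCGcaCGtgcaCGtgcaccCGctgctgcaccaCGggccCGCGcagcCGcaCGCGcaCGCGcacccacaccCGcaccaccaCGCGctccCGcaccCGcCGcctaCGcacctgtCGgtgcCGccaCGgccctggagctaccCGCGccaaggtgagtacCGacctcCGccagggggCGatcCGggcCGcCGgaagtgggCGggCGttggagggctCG
WNT8B, chr10:100482441-100482740: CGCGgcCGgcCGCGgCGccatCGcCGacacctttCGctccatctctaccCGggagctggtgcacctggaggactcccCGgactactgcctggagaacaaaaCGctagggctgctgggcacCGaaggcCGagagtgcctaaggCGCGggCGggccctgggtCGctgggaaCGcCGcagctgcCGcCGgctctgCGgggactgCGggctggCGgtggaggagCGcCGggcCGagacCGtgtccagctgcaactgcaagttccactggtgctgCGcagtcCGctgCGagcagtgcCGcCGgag

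The CCM2L, PRR7 and WNT8B windows overlap coding sequence on the plus strand. The HIP1 and KDM2B windows lie in genes on the minus strand and, like the NFIA window, overlap no coding sequence. They hold 50 CpG in CCM2L, 45 in HIP1, 55 in KDM2B, 41 in NFIA, 45 in PRR7 and 34 in WNT8B. The KDM2B window is 86.7% G and C, and the WNT8B window 71.7% G and C.

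Gene-body regions rested on fewer libraries than regions at transcript starts. Peaks of at least 5 reads in all 4 reChIP libraries were found at 44 of 3480 gene-body regions (1.26%, exact 95% interval 0.92 to 1.69), against 5623 of 20370 at transcript starts (27.6%, 27.0 to 28.2) and 68 of 4948 of those outside genes (1.37%). Over all merged regions the share was 19.9%. A single library supported 3242 gene-body regions (93.2%), 132 had peaks in 2 libraries and 62 in 3. At transcript starts 46.7% had a single library. These intervals cover counting error only, and the number of libraries that hold a peak is part of what selected the regions.

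**Figure D1:**
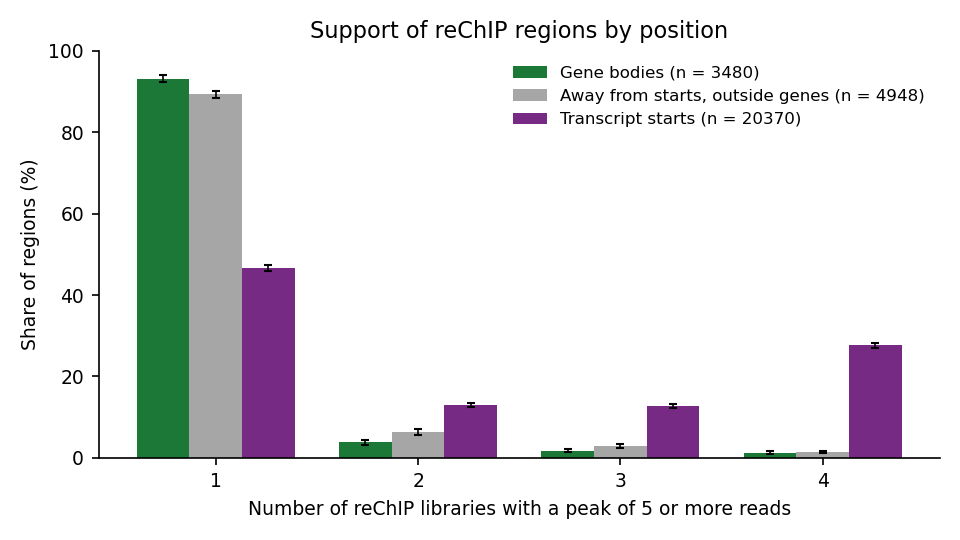
Share of regions (%) by the number of reChIP libraries with a peak of at least 5 reads, for gene-body regions, regions away from starts outside genes, and transcript-start regions, with exact 95% binomial intervals. Gene-body regions stand at 93.2% for 1 library and 1.26% for 4, transcript-start regions at 46.7% and 27.6%.

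Peaks of 2 to 4 reads did not fill the gap. Counting peaks of any size, 81 gene-body regions (2.33%) had a peak in all 4 libraries, and 2460 (70.7%) had a peak in 1 library with no peak of any size in the other 3. Most of the single-library regions were small in reads: 1455 of 3242 (44.9%) held exactly 5 reads, the minimum, and 2660 (82.0%) held fewer than 10.

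Which library supported a region was uneven. The lists were also unequal, with 24802 and 10220 peaks of at least 5 reads for K4–K119 replicates 1 and 2. K119–K4 replicates 1 and 2 had 11946 and 9732, and the part of list size was not tested. K4–K119 replicate 1 alone accounted for 1457 regions and replicate 2 alone for 290. K119–K4 replicate 2 alone accounted for 960 and replicate 1 alone for 535. The single-library regions differed in size: the highest held 283 reads in K4–K119 replicate 1 and 10 in replicate 2, against 15 in K119–K4 replicate 1 and 19 in replicate 2. At least 20 reads were found at 215 of the 1457 regions of K4–K119 replicate 1 alone and at none of the regions of the other 3 libraries alone. Without K4–K119 replicate 1, the number of gene-body regions was 2059.

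**Figure D2:**
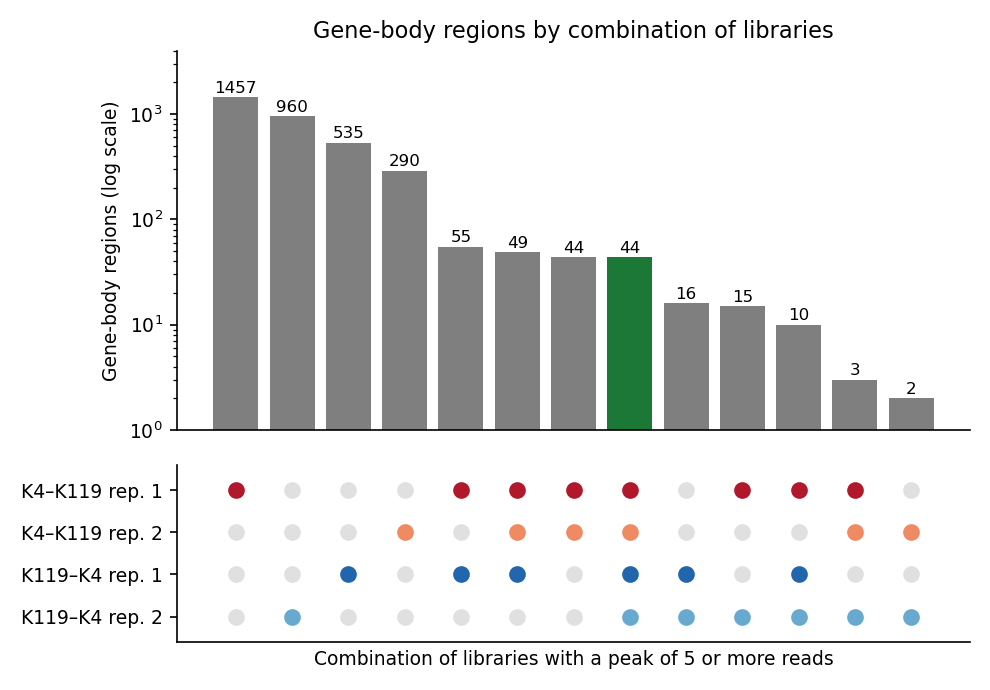
Number of gene-body regions (log scale) for each combination of reChIP libraries with a peak of at least 5 reads; colored dots below a bar mark the libraries. The 4 single-library bars hold 1457, 960, 535 and 290 regions, and the green bar with all 4 libraries holds 44.

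By antibody order, a peak lay at 48.2% and 12.4% of the gene-body regions in the K4–K119 replicates, against 20.4% and 30.2% in the K119–K4 replicates. The means were 30.3% ± 25.3 for K4–K119 and 25.3% ± 6.93 for K119–K4 (SD, n = 2 libraries each), so the K4–K119 values lie on both sides of the K119–K4 values and the difference of 5.03 percentage points is smaller than the spread between K4–K119 replicates. The difference turned to -21.2 points without K4–K119 replicate 1. It was 39.4 points with at least 10 reads per peak and 40.8 with at least 1 input read per peak. Transcript-start regions carried a peak of the same 4 libraries in 95.4% and 42.3% (K4–K119) and 48.5% and 35.1% (K119–K4) of cases.

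Few gene-body regions were shared between replicates of an order. Both K4–K119 replicates had a peak at 140 gene-body regions (4.02%), and both K119–K4 replicates at 70 (2.01%). At least 1 library of each order had a peak at 178 regions (5.11%), while 1791 had K4–K119 peaks only and 1511 K119–K4 peaks only. These shares were not computed for transcript-start regions or for all merged regions. Whether they are particular to gene-body regions was thus not tested.

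Own peaks of each library, counted before any merging, gave a comparison with IgG–IgG. The rule did not use the IgG–IgG lists, but the reChIP peaks counted here are those that were merged into the regions. Gene bodies away from starts make up 1111 of the 3031 Mb of chromosomes 1 to 22 and X. Gene-body peaks made up 7.02% and 4.57% of the peaks with at least 5 reads for K4–K119 and 6.23% and 11.0% in the K119–K4 replicates, against 47.9% and 42.5% in the IgG–IgG replicates. The reChIP and IgG–IgG ranges do not overlap. The reChIP mean was 7.20% ± 2.72 (SD, n = 4) and the IgG–IgG mean 45.2% ± 3.83 (SD, n = 2), a difference of -38.0 percentage points. This difference is described without a test, since these reChIP peaks chose the regions. The IgG–IgG lists held 48 and 40 peaks of at least 5 reads, of which 36 and 34 held exactly 5, against 9732 to 24802 in the reChIP lists. With at least 10 reads per peak, which leaves fewer IgG–IgG peaks still, the difference was -22.9 points.

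Few of the regions themselves overlapped an IgG–IgG peak. A peak of any size from either IgG–IgG library overlapped 84 gene-body regions (2.41%, 1.93 to 2.98), 848 transcript-start regions (4.16%) and 126 regions outside genes (2.55%). Over all merged regions the share was 3.67%. These shares count regions, and the classes covered unequal lengths: 2.073 Mb in gene bodies, 30.4 Mb at transcript starts and 3.105 Mb outside genes. Overlaps per Mb were not compared, so the shares do not rank the classes by IgG–IgG background. The median IgG–IgG peak at a gene-body region held 2 reads. Only 1 gene-body region overlapped an IgG–IgG peak of at least 5 reads, the 300 bp from chr7:106101301-106101600 in intron 1 of SYPL1, a synaptophysin-like vesicle protein gene. It held 25 reads in K4–K119 replicate 1, no peak in the other 3 reChIP libraries and 12 reads in IgG–IgG replicate 2. This region had 18 input reads beneath its K4–K119 peak and 0.333 CpG per 100 bp.

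Gene-body regions were short. Their median width was 500 bp (interquartile range 300 to 700, range 100 to 7200 bp), against 1300 bp at transcript starts. Regions away from starts outside genes had the same median of 500 bp and interquartile range of 300 to 700. Median width was 400 bp in 1 library, 900 bp in 2, 1600 bp in 3 and 2050 bp in 4. At transcript starts it was 700, 1300, 1800 and 2300 bp for the same numbers of libraries. Merging widens a region with each library that joins it, so width and support are not independent. Among gene-body regions of at least 2000 bp, 24 of 81 (29.6%) had peaks in all 4 libraries, against 3605 of 5660 (63.7%) of transcript-start regions of that width. Below 500 bp none of 1632 gene-body regions and 32 of 2636 transcript-start regions did.

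CpG content followed support. Regions away from starts outside genes had a median of 2.6 CpG per 100 bp and 53.9% G and C. Gene-body regions had a median of 2.00 CpG per 100 bp and 53.2% G and C, against 5.66 CpG per 100 bp and 58.9% at transcript starts. This contrast depended on the read minimum: with at least 10 reads per peak the medians were 5.12 CpG per 100 bp in 790 gene-body regions and 6 at transcript starts, and with at least 3 reads 1.25 and 4.39. The 1111 Mb of gene bodies away from transcript starts, in which the regions cover 0.187%, had 0.971 CpG per 100 bp and 41.0% G and C. The median was 1.86 CpG per 100 bp in regions of 1 library, 5.61 in regions of 2, 6.83 of 3 and 6.70 of 4. At transcript starts it was 4.44, 5.88, 6.22 and 6.59. In regions away from starts outside genes it was 2.25, 5.55, 6.57 and 6.76. The gene-body and transcript-start medians thus lay far apart at 1 library and close together at 4.

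A window of 200 bp with at least 50% G and C and an observed over expected CpG ratio of at least 0.6, the usual definition of CpG island sequence, occurred in 1091 gene-body regions (31.4%). It occurred in 27.0% of regions with 1 library, 82.6% with 2, and all 62 and all 44 regions with 3 and 4 libraries. Width moved with support too, and its part in these shares was not tested. At transcript starts 86.6% of regions had one, and away from starts outside genes 43.1% did. The libraries again differed: 47.1% of the regions of K4–K119 replicate 1 alone had an island window and 6.55% of those of K4–K119 replicate 2 alone, against 11.0% and 11.7% of those of K119–K4 replicates 1 and 2 alone.

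Support was also counted within bins of CpG content. Between 6 and 8 CpG per 100 bp, 19 of 286 gene-body regions (6.64%, 4.05 to 10.2) had peaks in all 4 libraries, against 42.1% of 6045 transcript-start regions. At 8 or more, the shares were 6.58% of 152 gene-body regions and 37.8% of 3066 transcript-start regions. Below 2 CpG per 100 bp none of 1650 gene-body regions had all 4 libraries, against 4 of 1459 transcript-start regions. Gene-body regions of 6 to 8 CpG per 100 bp were narrower, with a median of 800 bp, against 1700 bp at transcript starts, and the part of width and CpG content in the difference was not tested.

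Within each library, its own gene-body peaks held fewer CpG than its own transcript-start peaks. Median CpG per 100 bp was 3.00 and 1.60 in gene-body peaks of the K4–K119 replicates, against 5.88 and 6.95 in their transcript-start peaks. It was 2.33 and 1.67 in gene-body peaks of the K119–K4 replicates, against 7.58 and 8 in their transcript-start peaks. The mean was 2.15 ± 0.656 in gene bodies and 7.10 ± 0.922 at transcript starts (SD, n = 4 libraries), with a mean difference of -4.95 that was negative in 4 of 4 libraries (two-sided exact sign-flip permutation p = 0.125, the smallest that 4 libraries allow). The difference was -0.60 with at least 10 reads per peak (exact permutation p = 0.375) and, as a separate filter, -1.92 with at least 1 input read per peak (exact permutation p = 0.375).

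The 44 regions with peaks in all 4 libraries had lower read counts than their transcript-start counterparts. Median reads were 120.5 and 49.5 in the K4–K119 replicates and 78 and 20.5 in the K119–K4 replicates at the gene-body regions, against 146 and 75 (K4–K119) and 134 and 54 (K119–K4) at the 5623 transcript-start regions. Per kb, the gene-body medians were 58.0 and 24.8 reads for K4–K119 and 37.4 and 10.3 for K119–K4, against 65.6, 34.3, 60.4 and 24.6 at transcript starts in the same order of libraries. The relative gap was widest in K119–K4 replicate 2. K4–K119 replicate 1 had the most reads at 38 of the 44, and K119–K4 replicate 2 the fewest at 40. At least 20 reads were found in every library at 23 regions and at least 50 at 10. The study kept peaks with a log2 fold over input above 1, which 27 of the 44 met in every library by the fold of their largest peak there. Of the 12 regions with the highest reads in their lowest library, 8 did, and HIP1, TTC34, ASCL5 and NR2F6 did not.

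The region with the highest reads in its lowest library lay in CCM2L, a paralog of the cerebral cavernous malformation gene CCM2. It covered 3100 bp (chr20:32017701-32020800), spanned exons 3 to 5 and lay 7251 bp from the nearest transcript start. It held 275 and 103 K4–K119 reads against 218 and 97 K119–K4 reads, with no IgG–IgG peak. These counts are above the transcript-start medians in all 4 libraries, which was so at 6 of the 44 regions, while 25 were below them in all 4.

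The next regions by this order lay in RIN3, HIP1 and KDM2B. RIN3, which encodes an activator of the endosomal GTPase RAB5, had 243 and 121 K4–K119 reads against 187 and 89 K119–K4 reads in exon 10 (chr14:92686401-92689000). HIP1, which encodes a clathrin adaptor that binds huntingtin, had 234 and 123 K4–K119 reads against 214 and 76 K119–K4 reads in intron 1 (chr7:75637601-75640400), 10631 bp from the nearest start. KDM2B, the CpG-binding demethylase of variant PRC1, had 249 and 104 K4–K119 reads against 228 and 74 K119–K4 reads (chr12:121466301-121468400). The KDM2B region lay in intron 12 of the canonical transcript, over an exon of another transcript, and had 11.7 CpG per 100 bp. In these 3 genes each order had at least 74 reads in both replicates.

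BCOR, the BCL6 corepressor gene whose product works in the same variant PRC1 complex as KDM2B, held 2 regions with peaks in all 4 libraries. The larger, 5700 bp on chromosome X (chrX:40104501-40110200), had 258 and 107 K4–K119 reads against 230 and 55 K119–K4 reads and 4, 4, 4 and 3 input reads in the same order of libraries. It overlapped no annotated exon of a protein-coding gene and lay 5334 bp from the nearest start. It was outside the canonical transcript but within the gene as annotated through other transcripts. The smaller, 1700 bp in an intron, had 33 and 7 K4–K119 reads against 19 and 6 K119–K4 reads.

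NFIA, FOXO6, ASCL5 and NR2F6 were also among the 12. NFIA, a nuclear factor I gene, had 180 and 73 K4–K119 reads against 231 and 75 K119–K4 reads (chr1:61049801-61051500), again outside the canonical transcript. FOXO6, a forkhead gene, had 208 and 114 K4–K119 reads against 159 and 52 K119–K4 reads over exons 2 and 3 (chr1:41380101-41383600). ASCL5, a basic helix-loop-helix gene, had 196 and 80 K4–K119 reads against 150 and 44 K119–K4 reads over exon 2 (chr1:201114001-201115900). NR2F6, an orphan nuclear receptor gene, had 157 and 102 K4–K119 reads against 140 and 42 K119–K4 reads over exon 3 (chr19:17234701-17236500). All 4 had K119–K4 replicate 2 or, for NFIA, K4–K119 replicate 2 as the lowest library.

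The remaining 3 of the 12 were PRR7, TTC34 and the unnamed gene ENSG00000254553. PRR7, a proline-rich membrane protein gene of synapses and lymphocytes, had 177 and 67 K4–K119 reads against 123 and 61 K119–K4 reads over exons 2 to 4 (chr5:177453801-177456500). TTC34, a tetratricopeptide repeat gene, had 211 and 126 K4–K119 reads against 240 and 55 K119–K4 reads over exon 9 (chr1:2640601-2644000). The region in intron 4 of ENSG00000254553 (chr1:32499901-32501400) had 97 and 60 K4–K119 reads against 114 and 51 K119–K4 reads, 34829 bp from the nearest start. TTC34, NFIA and ENSG00000254553 were the members of the 12 with more reads in K119–K4 replicate 1 than in K4–K119 replicate 1.

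**Figure D3:**
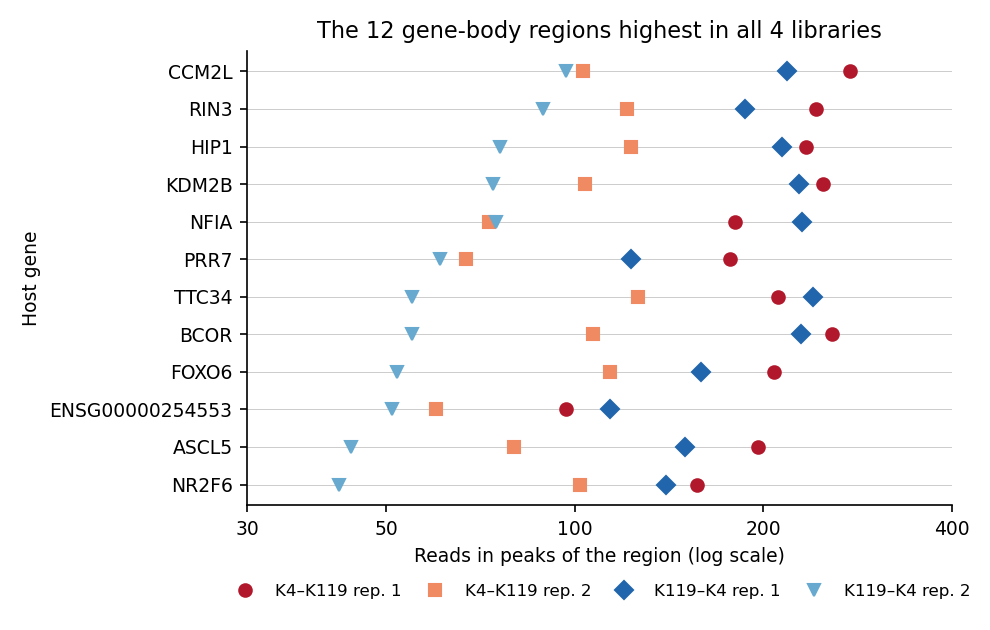
Reads in peaks (log scale) at the 12 gene-body regions with the highest reads in their lowest library, with 1 symbol per reChIP library. K4–K119 replicate 1 and K119–K4 replicate 1 lie to the right of both replicates 2 at each gene, and CCM2L has 275, 103, 218 and 97 reads.

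The widest gene-body regions lay in LHX5, TCHH and BCOR. LHX5, a LIM homeobox gene, carried 7200 bp (chr12:113462501-113469700) over exons 2 to 5, with 467 and 129 K4–K119 reads against 108 and 0 K119–K4 reads in peaks of at least 5 reads. TCHH, the trichohyalin gene of hair follicles, carried 5800 bp in exon 3 (chr1:152107301-152113100), with 474 and 202 K4–K119 reads against 118 and 6 K119–K4 reads. BCOR followed with 5700 bp. LHX5 thus lacked K119–K4 replicate 2, and TCHH stood near the minimum there.

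The orders were compared at the 44 regions after reads were divided by the median of each library at transcript-start regions with all 4 libraries. The mean log2 of K4–K119 over K119–K4 had a median of 0.37 and was above 0 at 38 of 44. It was highest at TCHH (3.24), where reads were 325% and 269% of the transcript-start median for K4–K119, against 88.1% and 11.1% for K119–K4. CBX8 and PAX2 followed with 1.95 each. At the other end stood FOXC1 (-0.82), with 17.8% and 65.3% for K4–K119, against 32.1% and 113% for K119–K4. The 44 regions share the same 4 libraries, so they are not separate observations of the order. The ratio was not computed for each transcript-start region, so whether the 38 of 44 is particular to gene-body regions was not tested. This ranking was made after the values were seen.

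FOXC1, a forkhead gene of mesoderm and eye development, was the single region of the 44 with its highest reads in K119–K4 replicate 2. It had 26 and 49 K4–K119 reads against 43 and 61 K119–K4 reads, over the UTR of its only exon and the sequence beyond (chr6:1613501-1615500). PAX2, a paired-box gene of kidney and eye development, had 273 and 89 K4–K119 reads against 120 and 9 K119–K4 reads over exons 9 and 10 (chr10:100826501-100829900), 77380 bp from the nearest annotated start. CBX8, a chromobox gene of canonical PRC1, had 225 and 77 K4–K119 reads against 127 and 6 K119–K4 reads (chr17:79791001-79794000). PAX2 and CBX8 hence had large counts in 3 libraries and counts near the minimum in K119–K4 replicate 2.

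A few regions had both replicates of 1 order and no peak of any size in the other. There were 20 such regions for K4–K119 (0.575% of gene-body regions) and 13 for K119–K4 (0.374%). Such regions were not counted at transcript starts or over all merged regions, and the part of list size was not tested. The 5 K4–K119 ones with the highest reads had 5.55 to 9.60 CpG per 100 bp. PTPRN2, a receptor-type phosphatase gene of secretory vesicles, had 296 and 50 K4–K119 reads in 4600 bp of intron 12 (chr7:157689601-157694200) with 8.37 CpG per 100 bp. PLCH2, a phospholipase C gene, had 189 and 54 reads and 8.75 CpG per 100 bp (chr1:2442901-2444500). EGLN3, a prolyl hydroxylase gene of oxygen sensing, had 121 and 51 reads (chr14:34059301-34061500), GLI2, a Hedgehog transcription factor gene, 102 and 44 in intron 1 (chr2:120740601-120742500), and UNC5A, a netrin receptor gene, 58 and 25 in intron 1 (chr5:176817301-176818300). None of the 5 had an IgG–IgG peak.

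The K119–K4 regions of the same kind were small. AJAP1, an adherens junction gene, had 10 and 9 K119–K4 reads in intron 1 (chr1:4684801-4685300). DSCAML1, a neural adhesion gene, had 8 and 13 in intron 1 (chr11:117794101-117795400), and another stretch of PTPRN2 intron 12 had 8 and 10 (chr7:157784501-157785600). SIGLEC1, the sialoadhesin gene of macrophages, had 7 and 9 in intron 8 (chr20:3698401-3699200), and KAZN, the kazrin gene, 7 and 6 (chr1:13964501-13965300). CpG per 100 bp was 0.8 at AJAP1, 3.08 at DSCAML1, 4.64 at PTPRN2, 1.38 at SIGLEC1 and 1.00 at KAZN. The DSCAML1, PTPRN2, SIGLEC1 and KAZN peaks had 0 input reads in K119–K4 replicate 1. The PTPRN2, SIGLEC1 and KAZN peaks also had 0 input reads in K119–K4 replicate 2.

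Reads per input read differed between reproducible and single-library regions. Both sets were chosen by whether the other libraries held a peak, so this difference is a description. In K4–K119 replicate 1, the 44 regions with all 4 libraries had a median of 120.5 reads over 6 input reads, 19.6 reads per input read and 3.33 input reads per kb. The 215 regions of that library alone with at least 20 reads had 32 reads over 7 input reads, 5.33 reads per input read and 5.88 input reads per kb. Of the 215, 200 (93.0%) held an island window and 79 had a peak of 2 to 4 reads in another reChIP library. The scale of reads to input implied by the deposited folds was 0.328 in K4–K119 replicate 1 and 3.95 in replicate 2, and 4.74 and 3.62 in the K119–K4 replicates. The K4–K119 replicates thus lie far apart on this scale, and its part in which library called a peak was not tested.

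The regions lay far from annotated starts as well as near the limit. The median distance to the nearest transcript start was 7278 bp for all 3480 regions and 6488 bp for the 44 with all 4 libraries. Between 1500 and 3000 bp lay 843 regions, of which 9 had all 4 libraries, and between 5000 and 10000 bp lay 628, of which 14 had. Beyond 50000 bp lay 217, of which 1 had.

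Just inside the limit, among regions with all 4 libraries, lay ASCL5 at 1550 bp and CPEB3 at 1646 bp. CPEB3, an RNA-binding gene of translational control, had 195 and 69 K4–K119 reads against 121 and 39 K119–K4 reads. Just outside lay regions near the starts of ZFPM1-AS1 at 1148 bp (241 and 104 reads in K4–K119, 196 and 75 in K119–K4), TATDN2P1 at 1116 bp (20 and 13, 16 and 10) and ADAM8 at 1065 bp (120 and 40, 89 and 31). Values on both sides of the limit overlap.

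Supported regions more often touched exons. Exons here are those of protein-coding genes, in any of their transcripts. Such an exon was overlapped by 18.0% of the regions with 1 library, 31.1% with 2, 50% with 3 and 59.1% (26 of 44) with 4. Coding sequence was overlapped by 23 of the 44 (52.3%), against 12.3% of single-library regions. The midpoint of a single-library region lay at a median of 45.2% of the gene length from its start, and that of the 44 at 71.4%. Wider regions meet exons more often. Among regions of at least 1000 bp, 66.2% of those with 1 library overlapped no exon, as did 40.5% of the 42 with 4 libraries.

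Gene-body regions lay in long genes. Of 19970 protein-coding genes, 2330 (11.7%) held a gene-body region and 45 (0.225%) one with all 4 libraries. Median length was 91.6 kb for the hosts and 27.5 kb for all protein-coding genes. The share with a region was 3.13% below 10 kb, 7.53% from 10 to 50 kb, 18.0% from 50 to 200 kb and 40.8% from 200 kb.

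PTPRN2 led with 50 regions, of which 24 had an island window, 5 had 2 or more libraries and none had all 4. DLGAP2 (23, a postsynaptic scaffold gene), ADARB2 (18, a brain RNA-editing family gene), PRDM16 (18, a brown fat and hematopoietic regulator) and CACNA1C (17, a calcium channel gene) followed, and none of them had a region with all 4 libraries. Each of these 5 genes lay within 5 Mb of a chromosome end. Over all gene-body regions, 716 (20.6%) lay within 5 Mb of an end, against 7.38% of gene-body sequence away from starts, which has 1.78 CpG per 100 bp there and 0.906 elsewhere. The share was 16.5% and 7.93% for regions of K4–K119 replicates 1 and 2 alone, 29.5% and 24.7% for K119–K4 replicates 1 and 2 alone, and 25% (11 of 44) for regions with all 4 libraries. The part of base composition in these shares was not tested.

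Lists of genes gave the following counts, read beside the 11.7% and 0.225% of all protein-coding genes. The lists were chosen with earlier results of these data known, so the shares are descriptions only. The ion channel and synaptic list also included CAMTA1, RBFOX3 and PTPRN2, the host with the most regions. A gene-body region was held by 29 of 46 ion channel and synaptic genes (63.0%), 21 of 50 axon guidance genes (42%), 27 of 80 developmental transcription factor genes (33.8%), 19 of 67 genes of Wnt, Notch, Hedgehog and TGF-beta signaling (28.4%), 12 of 63 Polycomb and Trithorax genes (19.0%), 7 of 47 cell cycle genes (14.9%), 3 of 30 lung epithelial genes, 2 of 38 immune genes and 1 of 50 ribosomal protein genes. Median gene length was 248 kb for the ion channel and synaptic list, 184 kb for axon guidance, 22.7 kb for developmental transcription factors, 37.2 kb for Wnt and related signaling, 77.1 kb for Polycomb and Trithorax, 19.8 kb for cell cycle, 14.8 kb for lung, 21.2 kb for immune and 5.68 kb for ribosomal protein genes. The order of the shares was thus not that of the lengths, and the part of gene length in the shares was not tested.

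With all 4 libraries, the Polycomb and Trithorax list had 4 genes of 63, KDM2B, BCOR, CBX7 and CBX8. KDM2B and BCOR had a log2 fold over input above 1 in every library. CBX7 had a fold of 0.91 in K119–K4 replicate 2. CBX8 had 0.48 in K4–K119 replicate 2, with 0.74 for K119–K4 replicate 1. CBX7, a chromobox gene of canonical PRC1, had 156 and 63 K4–K119 reads against 134 and 34 K119–K4 reads in intron 2 (chr22:39143701-39146200). The developmental transcription factor list had PAX2 and FOXC1, of which FOXC1 had a log2 fold of 0.60 in K119–K4 replicate 1. EPHB3, an ephrin receptor gene of the axon guidance list, had 72 and 18 K4–K119 reads against 36 and 9 K119–K4 reads in intron 1 (chr3:184568401-184569900). SHANK1, a postsynaptic scaffold gene, had 201 and 62 K4–K119 reads against 70 and 20 K119–K4 reads in intron 15 (chr19:50693201-50696000). The Wnt and related list, the cell cycle list, the ribosomal list, the immune list and the lung list had none (WNT8B, described next, is not on the Wnt list). At transcript starts, 4 of the 30 lung epithelial genes (NKX2-1, SFTPC, ABCA3 and EPCAM) and 0 of 38 immune genes had a region with all 4 libraries, against 30.4% of all protein-coding genes, and peaks do not measure expression.

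The regions with all 4 libraries and the fewest CpG were at HSPA1A (2.11 per 100 bp), NFIX (3.73) and WNT8B (4.26). HSPA1A, an inducible HSP70 gene, had 59 and 50 K4–K119 reads against 15 and 19 K119–K4 reads over its exon and the sequence beyond (chr6:31817401-31819200). HSPA1A has a near-identical copy, HSPA1B, and CROCC has paralogous copies. Whether reads were shared with these copies was not tested, so the values are given as uncertain. NFIX, a nuclear factor I gene, had 122 and 46 K4–K119 reads against 66 and 6 K119–K4 reads over exon 11 (chr19:13094401-13097000). WNT8B, a Wnt ligand gene of the embryonic brain, had 105 and 47 K4–K119 reads against 34 and 8 K119–K4 reads over exons 5 and 6 (chr10:100481701-100483600).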

How the data were processed

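Reads were trimmed with Trim Galore 0.6.6, aligned to hg38 with BWA 0.7.13 and processed with SAMtools 1.9 and Picard 2.6.0, per the submitters' processing notes. Peak calling by the authors used EPIC2 in 100 bp bins, 1 library at a time, with genomic input as control. The deposited count of reads and the deposited count of input reads per peak are whole numbers, not scaled. The deposited p-value and FDR come from the authors' test of a peak against input. The deposited log2 fold is reads over scaled input, with a small expected value standing in for 0 input reads. The score deposited with each peak is derived from that fold by the caller. Reads outside peaks are not listed, so sequencing depth is unknown, and sums of reads depend on what was called.

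Regions, distances and annotation were computed from GENCODE version 44 and the hg38 sequence with Python 3.11.15, numpy 2.4.6, pandas 2.3.3 and scipy 1.17.1, and plotted with matplotlib 3.10.9. Reads of a region are the sum over its peaks of at least 5 reads. Exon and intron numbers are those of the canonical transcript. The ENCODE blacklist was not used here. Intervals are exact binomial at 95%. The CpG difference within libraries was tested by a two-sided exact sign-flip permutation test. The order difference and the reChIP minus IgG–IgG difference are described without a test, since the reChIP libraries chose the regions.

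Regions were named by rule: the 12 with the highest reads in their lowest library (1 per host), the 3 widest, the 5 highest for each order alone, any with an IgG–IgG peak of at least 5 reads, the 5 hosts with the most regions, 3 on each side of the distance limit, up to 3 hosts per list and the 3 with the fewest CpG. A region and a sequence that this rule selects are not reported here. Members and lists were chosen with earlier results of these data known. Scripts were tested on simulated peaks. The 16 alternatives are given in the closing section.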

Additional observations from a re-analysis of the deposited data

How the results depend on the processing

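The number of gene-body regions was 790 with at least 10 reads per peak, 27104 with at least 3, 1660 with at least 1 input read and 2076 over 5000 bp from transcript starts, against 3480. The share with peaks in all 4 libraries was 3.92%, 0.214% and 1.99% under the first 3 of these and 0.774% with a log2 fold above 1. Median CpG per 100 bp was 5.12, 1.25 and 3.00 under the first 3. The share overlapping an IgG–IgG peak was 3.54% with at least 10 reads and 1.69% with at least 3. The order difference rose to 39.4 points with at least 10 reads and 40.8 with at least 1 input read. It turned to -11.3 points with at least 3 reads and -0.578 over 5000 bp from starts, and the cause of these changes was not tested. With the replicate block it was 5.03 points, as without it, from 27.8 in replicates 1 and -17.8 in replicates 2, and the shared numbers are not stated to pair libraries.

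Leaving out 1 library at a time, the number ran from 2059 (without K4–K119 replicate 1) to 3234, and the share with all remaining reChIP libraries from 1.59% to 3.72% (without K119–K4 replicate 2), where fewer libraries are required. Median CpG per 100 bp ran from 1.67 to 2.33, and the IgG–IgG share from 1.09% (without IgG–IgG replicate 2; 1.35% without replicate 1) to 2.77%. The reChIP minus IgG–IgG difference ran from -40.7 to -35.3 points, the order difference from -21.2 (without K4–K119 replicate 1) to 25.8 and the CpG difference from -5.64 to -4.49. The input of each library, 2 replicates per condition and peaks of 5 reads limit what can be resolved, and blacklisted sequence may remain among the regions.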
